A study of Mus musculus with 12 samples.

Results

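Integrins are the adhesion receptors of the cell surface, and macrophages use them to hold to other cells, to extracellular matrix and to complement-coated particles. The 9 integrin chains described here are Itgax, Itgam, Itgal, Itgb2, Itga4, Itga5, Itgav, Itgb1 and Itgb7. The tenth gene is Icam1, which codes for a counter-receptor of the Itgb2 integrins. They were chosen by name, as the probe sets of a mouse Affymetrix array whose only gene symbol was a listed one, with the brightest probe set over the 12 arrays standing for each gene. All 10 were measured, by 20 probe sets, among 12393 genes in all. The choice was made with earlier results of these arrays known, and Itgax was singled out in it for a question on its shift. The difference of Itgax between the genotypes is therefore a description here, with no test.

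The arrays measured RNA of macrophages grown from mouse bone marrow of the strain labelled 129-SvEv-Tac, in 6 groups of 2 arrays. p50-/-IL10-/- cells lack interleukin 10 (IL-10), which dampens inflammatory responses of macrophages, and the p50/p105 subunit of the transcription factor NF-kB, so effects of p50 and of p105 cannot be told apart. IL10-/- cells lack IL-10 only, so that every group shares this loss and IL-10 came in only as a treatment. Any other difference between the mice of the 2 genotypes would go with the p50/p105 loss and cannot be told apart from it. Cells of each genotype received 1 ng/ml lipopolysaccharide (LPS, a bacterial cell wall component) with 0.3 ng/ml IL-10, 1 ng/ml LPS alone, or nothing, and RNA was taken after 4 h. The marrow had been cultured for 5 days in 30% L-cell medium, which brings a growth factor for macrophages, with 10% serum. The labels call the arrays of a group biological replicates but do not say how many mice gave the marrow, so a p-value reflects only how these samples scatter. The sources used here do not give how the knockout alleles were made, and Nfkb1 transcripts, which code for p50 and p105, were not analysed here, so the genotypes rest on the labels.

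An integrin is a pair of an alpha and a beta chain, and a chain reaches the surface only with a partner. Itgax, Itgam and Itgal code for the alpha chains CD11c, CD11b and CD11a, which all pair with the beta chain of Itgb2 and bind Icam1 or complement fragments. Itga4 pairs with Itgb1 or Itgb7 and binds vascular adhesion molecules and fibronectin, Itga5 pairs with Itgb1 as a fibronectin receptor, and Itgav pairs with several beta chains to bind vitronectin and other matrix proteins. CD11c is widely used to mark dendritic cells, although many macrophages carry it too. NF-kB with p50 acts on DNA at promoters and enhancers, and Icam1 is a known NF-kB target.

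The promoter sequences of Itgax and Icam1 are shown because these genes carried the largest genotype difference and the largest LPS response of the 10. Each runs from 250 bases before to 50 bases after the annotated gene start in RefSeq, on build GRCm38.p6, whose reference strain is not the strain of these cells. Of the 10 genes, 8 had an entry, and Itgal and Itgb2 did not. Capitals mark matches, on either strand, to 4 motifs chosen after the sequences were seen.
Itgax, chr7:128129300-128129599, plus strand: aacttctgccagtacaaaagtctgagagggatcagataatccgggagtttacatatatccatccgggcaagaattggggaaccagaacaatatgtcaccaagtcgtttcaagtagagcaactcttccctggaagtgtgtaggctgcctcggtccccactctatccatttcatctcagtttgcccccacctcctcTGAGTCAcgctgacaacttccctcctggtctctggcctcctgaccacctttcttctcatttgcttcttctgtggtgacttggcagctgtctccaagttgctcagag
Icam1, chr9:21015690-21015989, plus strand: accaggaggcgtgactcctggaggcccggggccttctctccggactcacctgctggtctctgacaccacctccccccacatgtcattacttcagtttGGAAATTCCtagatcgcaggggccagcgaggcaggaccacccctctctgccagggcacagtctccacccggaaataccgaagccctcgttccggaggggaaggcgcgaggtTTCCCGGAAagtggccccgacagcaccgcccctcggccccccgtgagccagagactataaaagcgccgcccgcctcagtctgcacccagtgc
The Itgax window held the AP-1 motif TGANTCA, starting 56 bases before the gene start, which 7.81% of 32851 promoters of this length also held. The Icam1 window held the NF-kB motif GGAAATTCC, starting 153 bases before the gene start (0.317% of promoters), and the STAT motif TTCNNNGAA, starting 42 bases before it (8.30%). The 10-letter NF-kB consensus was in 0 of the 8 windows and in 8.46% of all promoters. GGAAATTCC is an exact string, while the other motifs have open positions, so the shares are not set against each other. These matches describe letters in a short window and none overlaps another.

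The values are log2 expression, on which a difference of 1 is a doubling of signal. Levels of different genes come from different probes and are not set against each other. Differences were fitted with limma on all 12393 genes, and a gene was called at a Benjamini-Hochberg adjusted p under 0.05. The fit took all arrays as independent, although differences between replicate arrays correlated across groups. The SE and p of a mean over the stimuli could therefore be too small. Replicate arrays correlated at 0.992 to 0.997 over all genes, and array medians lay between 6.92 and 6.97 log2. All 9 listed macrophage markers were measured, with list means between 11.27 and 11.59 log2 on single arrays, and Csf1r, Cd68, Lyz2 and Adgre1 were bright in every group. Over the stimuli, 3 of the 9 were lower in p50-/-IL10-/- than in IL10-/- cells, Adgre1 (-0.46 ± 0.06), Mrc1 (-0.88 ± 0.10) and Cd163 (-0.49 ± 0.10, at group means of 4.81 to 5.87 log2), and 2 were higher, Mertk (0.98 ± 0.11) and Cd68 (0.21 ± 0.05), beside 15.1% lower and 10.6% higher among all genes. The Mertk difference was 1.62 ± 0.19 with LPS and IL-10, 1.29 ± 0.19 with LPS and 0.03 ± 0.19 unstimulated. Without stimulus 1 of the 9 was called lower, Mrc1, and 0 higher (1.31% and 1.26% of all genes). The part of these marker shifts in the genotype differences of the integrins was not tested. Each value comes from cells in bulk, where fewer cells of a type and less RNA per cell cannot be told apart.

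Itgax was higher in p50-/-IL10-/- than in IL10-/- macrophages under every stimulus, and moved little with the stimuli. In p50-/-IL10-/- cells it read 10.49 and 10.96 log2 with LPS and IL-10, 10.92 and 10.45 with LPS, and 10.65 and 10.31 unstimulated. In IL10-/- cells it read 7.57 and 8.11 with LPS and IL-10, 7.54 and 8.40 with LPS, and 7.49 and 8.40 unstimulated. The genotypes did not overlap, since the lowest p50-/-IL10-/- array stood at 10.31 and the highest IL10-/- array at 8.40. Within IL10-/- cells, array 2 was the higher one under each stimulus. The genotype difference was 2.88 ± 0.35 log2 (SE, n = 2 arrays per group) with LPS and IL-10, 2.71 ± 0.35 with LPS and 2.54 ± 0.35 unstimulated, or 7.37-fold, 6.56-fold and 5.81-fold. Averaged over the stimuli it was 2.71 ± 0.20, the third largest positive difference of the 12393 genes.

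**Figure D1:**
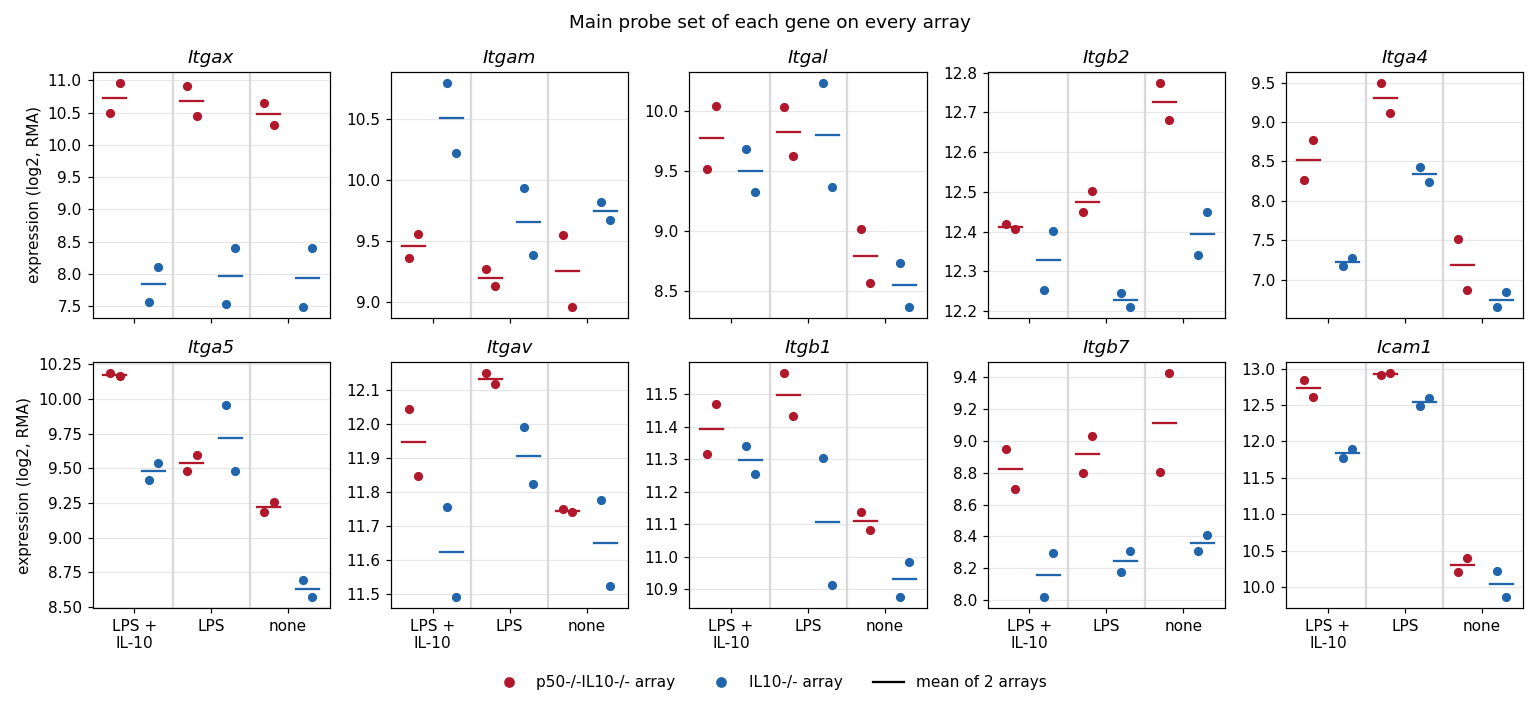
Log2 expression (vertical axis, its range set per gene) of the main probe set of each of the 10 genes on each of the 12 arrays, with stimuli along the horizontal axis, p50-/-IL10-/- arrays in red, IL10-/- arrays in blue and bars at the mean of 2 arrays. Itgax arrays of p50-/-IL10-/- cells lie at 10.31 to 10.96 and those of IL10-/- cells at 7.49 to 8.40, while Icam1 separates mainly by stimulus and Itga4 differs by both stimulus and genotype.

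Neither LPS nor added IL-10 gave a called change of Itgax. LPS against no stimulus differed by 0.20 ± 0.35 log2 in p50-/-IL10-/- cells (adjusted p 0.725) and by 0.03 ± 0.35 in IL10-/- cells (adjusted p 0.973). IL-10 added to LPS differed by 0.04 ± 0.35 in p50-/-IL10-/- cells (adjusted p 0.965) and by -0.13 ± 0.35 in IL10-/- cells (adjusted p 0.932). Of 10 listed dendritic cell markers 8 were measured, and 0 were called by limma between the genotypes over the stimuli. The shares of all genes were 10.6% higher and 15.1% lower. Zbtb46, Xcr1, Ccr7 and Dpp4 stayed under the lower quartile of the arrays in every group. The list mean on single arrays was 5.98 to 6.10 log2 in p50-/-IL10-/- cells and 6.00 to 6.14 in IL10-/- cells. With LPS and IL-10, Flt3 (0.27 ± 0.08, adjusted p 0.0443) and Zbtb46 (0.23 ± 0.07, adjusted p 0.0483) were higher in p50-/-IL10-/- cells, Zbtb46 at a dim level. In that comparison 7.58% of all genes were called higher. The part of dendritic cells in the Itgax difference was not tested.

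The chains that share the Itgb2 integrins with Itgax did not shift by a like amount between the genotypes. Itgb2, the common beta chain, read 12.42 and 12.41 log2 with LPS and IL-10, 12.45 and 12.50 with LPS, and 12.77 and 12.68 unstimulated in p50-/-IL10-/- cells. IL10-/- cells gave 12.25 and 12.40 with LPS and IL-10, 12.24 and 12.21 with LPS, and 12.34 and 12.45 unstimulated. Under each stimulus both p50-/-IL10-/- arrays stood above both IL10-/- arrays, by small steps. The mean genotype difference was 0.22 ± 0.05 (adjusted p 0.00521), with 0.08 ± 0.08 under LPS and IL-10, 0.25 ± 0.08 under LPS and 0.33 ± 0.08 unstimulated, of which none was called singly.

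Itgam, the complement receptor chain CD11b and a general marker of myeloid cells, stood the other way. In p50-/-IL10-/- cells it read 9.36 and 9.56 log2 with LPS and IL-10, 9.27 and 9.13 with LPS, and 9.55 and 8.96 unstimulated. The IL10-/- arrays read 10.79 and 10.22 with LPS and IL-10, 9.93 and 9.38 with LPS, and 9.82 and 9.67 unstimulated. The p50-/-IL10-/- arrays lay below the IL10-/- arrays of the same stimulus in each case, though not over all stimuli. The mean difference was -0.67 ± 0.14 (adjusted p 0.00457), and with LPS and IL-10 it was -1.05 ± 0.23 (adjusted p 0.0124), while unstimulated (-0.49 ± 0.23) and LPS-treated cells (-0.46 ± 0.23) gave no call. The call with LPS and IL-10 was kept in 10 of 12 fits that left out 1 array, and was lost without array 1 of IL10-/- cells given both (adjusted p 0.0822) or array 1 of such p50-/-IL10-/- cells. Neutrophils also carry Itgam, and 7 of 8 measured neutrophil markers were lower in p50-/-IL10-/- cells over the stimuli (15.1% of all genes). Among them were Ngp (-0.85 ± 0.05) and S100a8. The list mean on single arrays was 7.95 to 8.15 log2 in p50-/-IL10-/- cells and 8.54 to 8.72 in IL10-/- cells. Within IL10-/- cells it was 8.71 to 8.72 with LPS and 8.54 to 8.58 with LPS and IL-10, where the Itgam arrays read higher. The part of the neutrophil genes in the Itgam difference was not tested.

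Itgal, the chain CD11a of the receptor through which leukocytes bind Icam1, differed little between the genotypes. In p50-/-IL10-/- cells it read 9.52 and 10.04 log2 with LPS and IL-10, 10.03 and 9.62 with LPS, and 9.02 and 8.57 unstimulated. In the IL10-/- groups it read 9.68 and 9.32 with LPS and IL-10, 10.23 and 9.37 with LPS, and 8.74 and 8.37 unstimulated. The genotypes overlapped under every stimulus, and the mean difference was 0.18 ± 0.17 (adjusted p 0.491).

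Set against these partners on the same arrays, the genotype difference of Itgax exceeded that of Itgb2 by 2.49 log2, that of Itgam by 3.38 and that of Itgal by 2.53, as means over the stimuli. By stimulus the excess over Itgb2 was 2.80 with LPS and IL-10, 2.47 with LPS and 2.21 unstimulated, that over Itgam 3.93, 3.17 and 3.03, and that over Itgal 2.61, 2.69 and 2.30. No p is given for these, since they hold the Itgax difference that the question was built on. Changes with the stimuli do not hold that genotype difference and were tested with an exact two-sided permutation test within genotypes. The genes were still chosen with earlier results of these arrays known. Relative to unstimulated cells, stimulated cells (LPS alone or with IL-10) gave an Itgax change minus Itgal change of -0.96 log2 (exact p 0.0311, adjusted p 0.187 over the 6 stimulus tests), a difference of -0.78 in p50-/-IL10-/- and -1.14 in IL10-/- cells that missed the threshold. The adjusted p was 0.08 to 0.36 over 12 fits that left out 1 array each. Against Itgb2 (0.29, adjusted p 0.667) and Itgam (-0.11, adjusted p 0.96) no difference in stimulus response was detectable by this exact test. For IL-10 added to LPS, the differences were -0.06 from Itgb2, -0.60 from Itgam and 0.13 from Itgal, in a design whose smallest exact p is 0.0556.

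**Figure D2:**
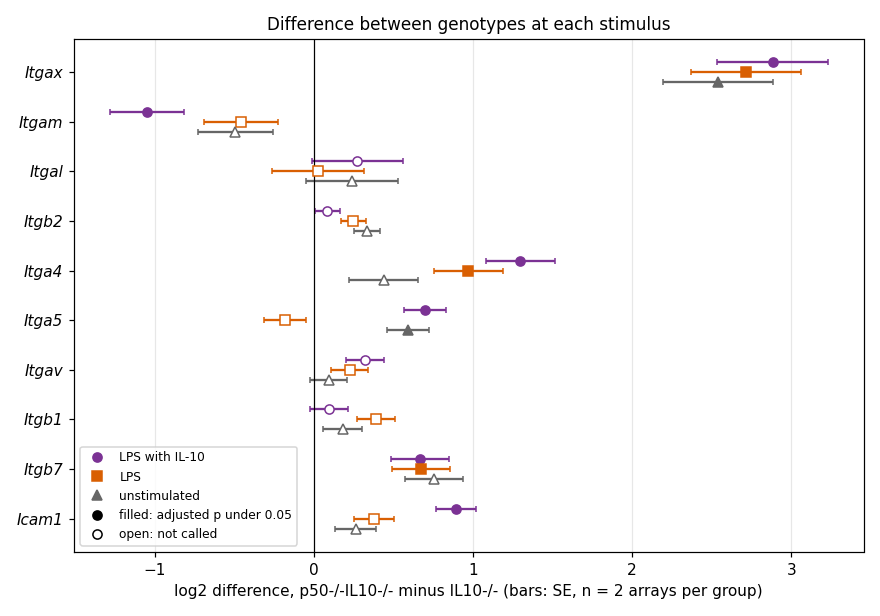
Log2 difference, p50-/-IL10-/- minus IL10-/- (horizontal axis), for the 10 genes at each stimulus, with bars of 1 SE (n = 2 arrays per group) and filled markers for an adjusted p under 0.05. Itgax lies between 2.54 and 2.88, Itgam below 0 at all stimuli, and the other 8 genes between -0.18 and 1.30.

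Among the alpha chains of the fibronectin and vascular adhesion receptors, Itga4 was called higher in p50-/-IL10-/- cells in both LPS-treated comparisons. In p50-/-IL10-/- cells it read 8.27 and 8.77 log2 with LPS and IL-10, 9.49 and 9.12 with LPS, and 7.51 and 6.86 unstimulated. In IL10-/- cells it read 7.17 and 7.27 with LPS and IL-10, 8.43 and 8.24 with LPS, and 6.66 and 6.84 unstimulated. The genotypes did not overlap under any stimulus, but without stimulus array 2 of p50-/-IL10-/- cells stood next to the IL10-/- arrays. The difference was 1.30 ± 0.22 with LPS and IL-10 (2.46-fold, adjusted p 0.00286) and 0.97 ± 0.22 with LPS (adjusted p 0.0153). Unstimulated it was 0.44 ± 0.22 (adjusted p 0.417). The LPS response of Itga4 differed between the genotypes by 0.53 ± 0.31 in limma (adjusted p 0.673), which was not a call. The call with LPS ended without array 1 of the p50-/-IL10-/- group with LPS (adjusted p 0.128) or array 2 of LPS-treated IL10-/- cells.

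Itgb7, the beta chain that pairs with Itga4 for gut homing and with Itgae, was the integrin whose arrays also separated completely by genotype. It read 8.95 and 8.70 log2 with LPS and IL-10, 8.80 and 9.03 with LPS, and 8.80 and 9.42 unstimulated in p50-/-IL10-/- cells. IL10-/- cells gave 8.02 and 8.29 with LPS and IL-10, 8.18 and 8.31 with LPS, and 8.31 and 8.41 unstimulated. All p50-/-IL10-/- arrays were above all IL10-/- arrays, for Itgax and Itgb7 among the 10 genes and for 1.44% of all genes. Of the 10, 0 had all p50-/-IL10-/- arrays below (1.82%). The mean difference was 0.70 ± 0.10 (1.62-fold, adjusted p 0.000786), kept with each array left out in turn. The calls with LPS and IL-10 (0.67 ± 0.18, adjusted p 0.0292) and with LPS (0.67 ± 0.18, adjusted p 0.0355) each ended without any of the 4 arrays compared, with adjusted p up to 0.168 without array 1 of p50-/-IL10-/- cells given both and up to 0.186 without array 2 of the p50-/-IL10-/- group with LPS. No stimulus gave a called change of Itgb7, with LPS differences of -0.20 ± 0.18 in p50-/-IL10-/- and -0.12 ± 0.18 in IL10-/- cells.

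Itga5, the fibronectin receptor chain, was higher in p50-/-IL10-/- cells with LPS and IL-10 and without stimulus, but not with LPS alone. It read 10.18 and 10.17 log2 with LPS and IL-10, 9.48 and 9.59 with LPS, and 9.19 and 9.26 unstimulated in p50-/-IL10-/- cells. The IL10-/- arrays read 9.42 and 9.54 with LPS and IL-10, 9.96 and 9.48 with LPS, and 8.69 and 8.57 unstimulated. Only the LPS groups overlapped, where IL10-/- array 1 stood well above array 2. The differences were 0.70 ± 0.13 with LPS and IL-10 (adjusted p 0.00546), -0.18 ± 0.13 with LPS (adjusted p 0.456) and 0.59 ± 0.13 unstimulated (adjusted p 0.0448). The unstimulated call was kept in 2 of 12 fits that left out 1 array, those without an LPS-treated IL10-/- array, with an adjusted p up to 0.276 without array 2 of unstimulated IL10-/- cells, whereas the call with LPS and IL-10 was kept in all 12.

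The matrix receptor chains Itgav and Itgb1 showed small differences. Over its 6 arrays of each genotype, Itgav was 11.74 to 12.15 log2 in p50-/-IL10-/- cells and 11.49 to 11.99 in IL10-/- cells. Itgb1, the most shared beta chain, was 11.08 to 11.56 in p50-/-IL10-/- cells and 10.88 to 11.34 in IL10-/- cells. The ranges overlapped for both genes. Mean differences of 0.21 ± 0.07 for Itgav (adjusted p 0.0409) and 0.22 ± 0.07 for Itgb1 (adjusted p 0.0385) were called. Leaving out 1 array kept the Itgav call in 4 of 12 fits (without array 1 of any IL10-/- group or array 2 of doubly treated (LPS and IL-10) p50-/-IL10-/- cells) and the Itgb1 call in 3 (without array 1 of LPS-treated IL10-/-, array 2 of LPS-treated p50-/-IL10-/- or array 1 of doubly treated p50-/-IL10-/- cells). It gave adjusted p up to 0.114 without array 2 of unstimulated IL10-/- cells for Itgav and up to 0.103 without array 2 of the p50-/-IL10-/- group with LPS and IL-10 for Itgb1.

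Icam1, the ligand, followed LPS in both genotypes. In p50-/-IL10-/- cells it read 12.85 and 12.61 log2 with LPS and IL-10, 12.91 and 12.93 with LPS, and 10.21 and 10.40 unstimulated. In the IL10-/- groups it read 11.78 and 11.90 with LPS and IL-10, 12.49 and 12.60 with LPS, and 10.22 and 9.86 unstimulated. Stimulated and unstimulated arrays were far apart, and the genotypes separated in the stimulated groups but overlapped without stimulus. The genotype difference was 0.89 ± 0.13 with LPS and IL-10 (1.86-fold, adjusted p 0.00119), 0.38 ± 0.13 with LPS (adjusted p 0.083) and 0.26 ± 0.13 unstimulated (adjusted p 0.403).

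Counted over the 10 genes, p50-/-IL10-/- cells had 8 higher and 1 lower for the mean over the stimuli, against 10.6% higher and 15.1% lower among all genes. With LPS and IL-10 the counts were 5 higher and 1 lower (7.58% and 10.4% of all genes), with LPS 3 higher (5.66%, and 6.72% lower) and unstimulated 2 higher (1.26%, and 1.31% lower). The median difference of the 10 was 0.50 log2 with LPS and IL-10 (all genes 0.04), 0.31 with LPS (all genes -0.02) and 0.30 unstimulated (all genes -0.01). Within each stimulus, Itgax, Itgb2, Itga4 and Itgb7 had both p50-/-IL10-/- arrays above both IL10-/- arrays, as 6.51% of all genes did, and Itgam had them below, as 9.0% did. Because Itgax was picked out from these contrasts, nothing is read from the counts. Leaving out array 1 of LPS-treated p50-/-IL10-/- cells took the count with LPS to 1, and the unstimulated count was 1 without any array other than array 1 of unstimulated p50-/-IL10-/- cells and both arrays of LPS-treated IL10-/- cells.

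LPS raised Icam1, Itga4 and Itgal in both genotypes. Against unstimulated cells Icam1 rose 6.16-fold in p50-/-IL10-/- cells (2.62 ± 0.13 log2, adjusted p 2.57e-07) and 5.69-fold in IL10-/- cells (2.51 ± 0.13, adjusted p 5.54e-07). Itga4 rose 4.34-fold in p50-/-IL10-/- cells (2.12 ± 0.22, adjusted p 3.23e-05) and 3.00-fold in IL10-/- cells (1.59 ± 0.22, adjusted p 0.000368). Itgal rose by 1.03 ± 0.29 in p50-/-IL10-/- cells (adjusted p 0.0183) and by 1.24 ± 0.29 in IL10-/- cells (adjusted p 0.00892). The calls of Icam1 and Itga4 were kept with each array left out, and those of Itgal in 10 of 12 such fits in each genotype, ending without array 2 of unstimulated (adjusted p 0.146) or array 1 of LPS-treated cells in p50-/-IL10-/-. In IL10-/- they ended without the arrays of the same numbers and treatments (adjusted p up to 0.077). Itga5 rose by 1.09 ± 0.13 in IL10-/- cells (adjusted p 0.000173), where its difference in p50-/-IL10-/- cells was 0.32 ± 0.13 (adjusted p 0.0971).

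Other calls with LPS came from p50-/-IL10-/- cells, in matrix receptor chains and in the common beta chain. Itgav rose by 0.39 ± 0.12 (adjusted p 0.0273) and Itgb1 by 0.39 ± 0.12 (adjusted p 0.0301), where IL10-/- cells gave 0.26 ± 0.12 and 0.18 ± 0.12. Itgb2 fell by 0.25 ± 0.08 (adjusted p 0.0331), where IL10-/- cells gave -0.17 ± 0.08 (adjusted p 0.167). Each of these calls ended without any of the 4 arrays compared. The Itgb2 call also ended with arrays centred on their medians or with a fit of only the groups compared, and the Itgb1 call with quantile normalization. Of the 10 genes, 5 were called higher and 1 lower with LPS in p50-/-IL10-/- cells (10.3% and 22.1% of all genes) and 4 higher and 0 lower in IL10-/- cells (7.76% and 17.1%). Without array 2 of unstimulated or array 1 of LPS-treated p50-/-IL10-/- cells, the 6 calls became 2, and without array 2 of LPS-treated cells 3. The median difference was 0.35 log2 in p50-/-IL10-/- cells (all genes -0.01) and 0.22 in IL10-/- cells (all genes -0.01).

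**Figure D3:**
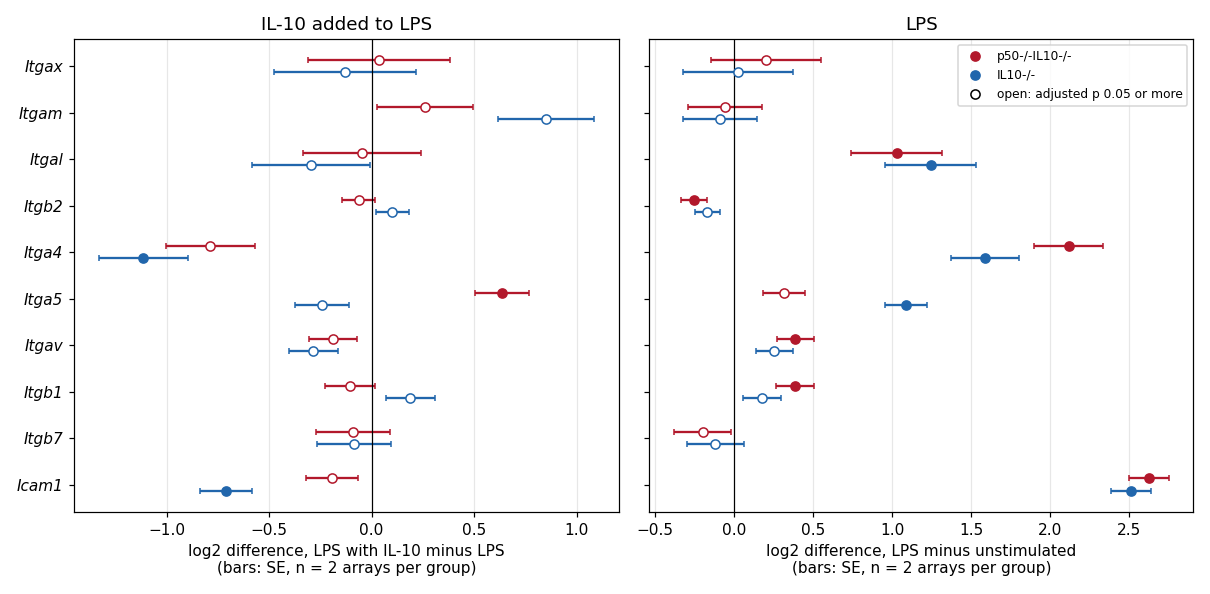
Log2 difference for LPS with IL-10 minus LPS (left panel) and for LPS minus unstimulated (right panel) in p50-/-IL10-/- cells (red) and IL10-/- cells (blue), with bars of 1 SE (n = 2 arrays per group) and open markers where the adjusted p was 0.05 or more. Icam1 and Itga4 stand at 1.59 to 2.62 with LPS in both genotypes, and with IL-10 added Itga5 stands at 0.64 in p50-/-IL10-/- and -0.24 in IL10-/- cells.

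Added IL-10 had called effects on few of these genes. In IL10-/- cells given LPS, IL-10 lowered Itga4 to a level 0.462 times that with LPS alone (-1.11 ± 0.22 log2, adjusted p 0.0117) and Icam1 to 0.611 times (-0.71 ± 0.13, adjusted p 0.00743). In p50-/-IL10-/- cells the values were -0.79 ± 0.22 for Itga4 (adjusted p 0.0575) and -0.19 ± 0.13 for Icam1 (adjusted p 0.391). Itga5 alone was called in p50-/-IL10-/- cells, where IL-10 raised it by 0.64 ± 0.13 (adjusted p 0.0189), against -0.24 ± 0.13 in IL10-/- cells (adjusted p 0.417). Itgam differed by 0.26 ± 0.23 with IL-10 in p50-/-IL10-/- cells (adjusted p 0.541) and by 0.85 ± 0.23 in IL10-/- cells (adjusted p 0.0622), neither of them a call. Of the 10 genes, 1 was higher and 0 lower in p50-/-IL10-/- cells (3.7% and 2.87% of all genes), and 0 were higher and 2 lower in IL10-/- cells (3.35% and 2.82%). The balance over all genes in p50-/-IL10-/- cells, 458 higher and 356 lower, turned to 307 higher and 398 lower with arrays centred on their medians. The median of the 10 was -0.08 log2 in p50-/-IL10-/- (all genes 0.05) and -0.19 in IL10-/- cells (all genes 0.01).

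Those calls rested on few arrays. The Itga4 call in IL10-/- cells was kept in 9 of 12 fits that left out 1 array, with an adjusted p up to 0.0809 without array 1 of LPS-treated IL10-/- cells (the others were both arrays of doubly treated IL10-/- cells), and the Icam1 call in 11, ending without array 1 of IL10-/- cells given both (adjusted p 0.0609), which left 0 calls. The Itga5 call was kept in 8 of 12 and ended without either array of the p50-/-IL10-/- groups with LPS or both, and its other probe set gave 0.30 ± 0.26 (adjusted p 0.551). The count of 1 in p50-/-IL10-/- cells thus became 0 without any of those arrays, and 2 without either unstimulated p50-/-IL10-/- array.

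Whether the responses themselves differed between the genotypes was tested as the difference of differences. Of the 10 genes, 0 were called for the LPS response (1.19% of all genes in either direction) or for the IL-10 effect (0.137%) in limma, and at an unadjusted p under 0.05 there were 1 (Itga5) and 2 (Itga5 and Icam1). The LPS response of Itga5 differed by -0.77 ± 0.19 (adjusted p 0.101) and its IL-10 effect by 0.88 ± 0.19 (adjusted p 0.144), and that of Icam1 by 0.52 ± 0.18 (adjusted p 0.335). Without array 2 of LPS-treated IL10-/- cells, Itga5 was called for both. For Itgax the differences were 0.18 ± 0.49 in the LPS response and 0.17 ± 0.49 in the IL-10 effect.

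Set against the same unstimulated arrays, cells given LPS and IL-10 together held Icam1 high: it stood 5.39-fold above unstimulated cells in p50-/-IL10-/- (2.43 ± 0.13 log2, adjusted p 4.16e-07) and 3.48-fold in IL10-/- macrophages (1.80 ± 0.13, adjusted p 5.38e-06). Itga5 rose by 0.95 ± 0.13 in p50-/-IL10-/- cells (adjusted p 0.000304) and by 0.85 ± 0.13 in IL10-/- cells (adjusted p 0.00112). Itga4 rose by 1.33 ± 0.22 in p50-/-IL10-/- cells (adjusted p 0.000914), where IL10-/- cells gave 0.47 ± 0.22 (adjusted p 0.174). These calls were kept with each array left out in turn. Itgal rose by 0.98 ± 0.29 in p50-/-IL10-/- and 0.95 ± 0.29 in IL10-/- cells, calls kept in 10 of 12 fits without 1 array (not without array 2 of unstimulated or doubly treated cells) and in 8 (not without any of the 4 arrays compared). Itgb2 fell by 0.32 ± 0.08 in p50-/-IL10-/- cells, kept in 10 (not without array 1 of unstimulated or array 2 of doubly treated cells). Itgam rose by 0.76 ± 0.23 in IL10-/- cells, kept in 5, and ended without either unstimulated IL10-/- array, array 1 of doubly treated IL10-/- cells or any stimulated p50-/-IL10-/- array. Their highest adjusted p was 0.152 for Itgal without array 2 of p50-/-IL10-/- cells given both, 0.235 for Itgal and 0.324 for Itgam without array 1 of IL10-/- cells given both, and 0.0769 for Itgb2 without array 1 of unstimulated p50-/-IL10-/- cells. Of the 10 genes 4 were higher and 1 lower in p50-/-IL10-/- cells (16.7% and 21.2% of all genes), and 4 higher and 0 lower in IL10-/- cells (6.94% and 12.5%), with medians of 0.26 log2 (all genes 0.05) and 0.42 (all genes 0.00). Single arrays left out took the 5 calls in p50-/-IL10-/- cells to 3 (without array 2 of cells given both) and the 4 in IL10-/- cells to 2 (without either unstimulated array or array 1 of cells given both).

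Itga4, Itga5, Itgav and Itgb1 had more than 1 probe set, and the brighter ones of each had mean genotype differences of the same sign over the stimuli. With LPS alone the Itga5 probe sets differed in sign, at -0.18 ± 0.13 for the main one and 0.05 ± 0.26 for the other, neither called. Another Itga4 probe set rose with LPS by 1.66 ± 0.25 log2 in p50-/-IL10-/- and 1.36 ± 0.25 in IL10-/- cells, and its mean genotype difference of 0.85 ± 0.14 (adjusted p 0.00207, over all probe sets) was near the main value. The other Itga5 probe set gave the same mean genotype difference as the main one, 0.37, with a wider SE of 0.15 and no call (adjusted p 0.108). The name of the main Itga5 probe set marks probes that can match several transcripts. For Itgav the probe sets disagreed in size: another one rose with LPS by 1.46 ± 0.30 in p50-/-IL10-/- cells (adjusted p 0.00487), and its mean genotype difference was 0.76 ± 0.18 (adjusted p 0.011), beside 0.21 ± 0.07 for the main probe set. For Itgb1 the next probe sets gave 0.26 ± 0.05 and 0.20 ± 0.05 (adjusted p 0.00696 and 0.023), while 3 others were dim, with means of 4.00 to 4.36 log2. The other 6 genes were each read from 1 probe set.

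**Figure D4:**
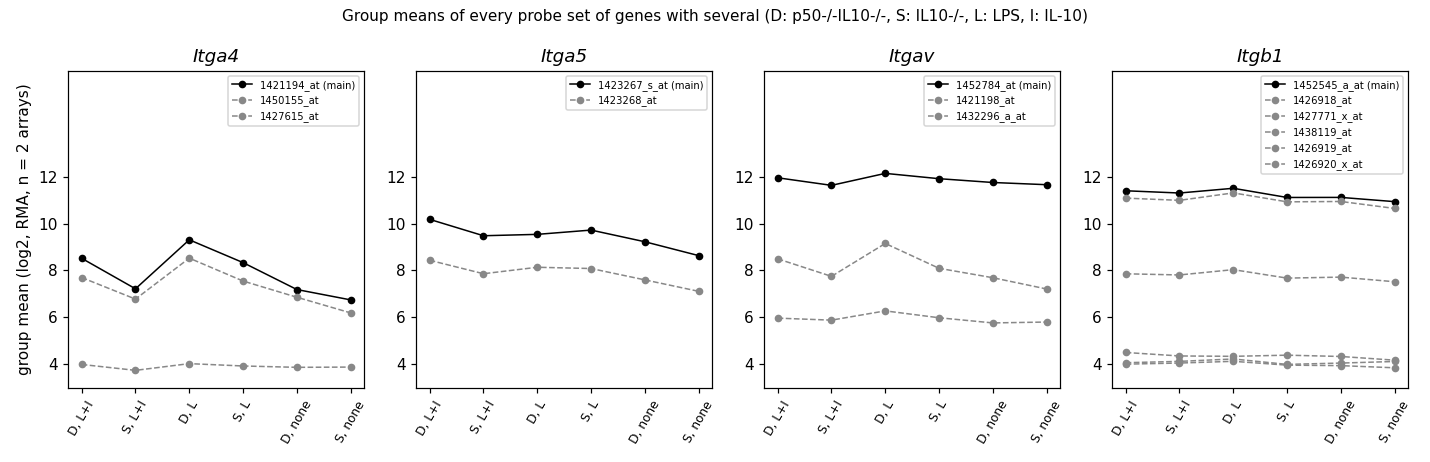
Group means (log2, 2 arrays each) of every probe set of Itga4, Itga5, Itgav and Itgb1 across the 6 groups, the main one in black and the others dashed in grey, with their names in the legend. The brighter probe sets of Itga4 follow the main one, and an Itgav probe set with a mean of 8.07 differs by 1.46 with LPS in p50-/-IL10-/- cells, where the main one differs by 0.39.

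The measured neighbours of Itgax had far smaller differences. Itgax, Itgam and Itgal all lie on chromosome 7, and Itgam is the nearest protein-coding neighbour on one side of Itgax, with Itgad, which was not analysed here, on the other. Of 16 neighbours, 8 on each side, 10 were measured, and their mean genotype differences ran from -0.67 (Itgam) to 0.34 log2. Of these, 2 were higher in p50-/-IL10-/- cells (Cox6a2, 0.34 ± 0.07, and Rgs10, 0.20 ± 0.06) and 1 was lower (Itgam), against 10.6% and 15.1% of all genes.

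Across the 6 group means, the pattern of Itgax was most like those of Olfml3 (Pearson r 0.996), Ifi27l2a (0.995), Rims2 (0.992), Tmem87a (0.989) and Gbp2b (0.986), among 1557 genes whose group means spanned at least 1 log2. The 6 means fall into the 2 genotypes, so that r describes mainly this split. The genotype differences of these genes were 1.51 ± 0.08, 2.16 ± 0.52, 1.44 ± 0.10, 2.44 ± 0.06 and 6.71 ± 0.12 log2 in that order, with Gbp2b dim in IL10-/- cells (4.78 to 5.09). Among the other 9 genes described here, r with Itgax was highest for Itgb7 (0.948), lowest for Itgam (-0.776) and 0.679 for Itgb2.

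Other genes of the integrin system were followed through 3 lists chosen with earlier results known. Of 19 other integrin chains 14 were measured. Between the genotypes over the stimuli 0 were higher and 1 lower (10.6% and 15.1% of all genes), which was Itgb5, a partner of Itgav (-0.28 ± 0.04, adjusted p 0.000581), and the list median was 0.00 log2, as over all genes. With LPS, 2 rose and 2 fell in p50-/-IL10-/- cells (10.3% and 22.1% of all genes), where Itgb4 rose by 0.32 ± 0.09 and the falls were in Itgb5 (-1.20 ± 0.07) and Itga6, a laminin receptor chain (-0.93 ± 0.17). In IL10-/- cells 0 rose and 2 fell (7.76% and 17.1%), Itgb5 (-1.15 ± 0.07) and Itga6 (-1.06 ± 0.17). The falls of Itgb5 and Itga6 thus stood beside rises of Itga4 and Itgal in the same cells.

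Of 18 other integrin ligands 16 were measured, and 2 were higher and 2 lower in p50-/-IL10-/- cells over the stimuli, with a list median of 0.03 log2 (all genes 0.00) and counts near the shares of all genes (10.6% and 15.1%). Thrombospondin gene Thbs1 averaged 6.24 log2 with LPS and IL-10, 6.93 with LPS and 7.24 unstimulated in p50-/-IL10-/- cells, against 8.74, 9.30 and 11.02 in IL10-/- cells, a mean difference of -2.88 ± 0.12 (adjusted p 2.84e-07). Fibronectin gene Fn1, the ligand of Itga5 and Itga4 integrins, differed by -1.06 ± 0.11 (adjusted p 8.38e-05), and Mfge8, which links apoptotic cells to Itgav integrins, was higher by 0.51 ± 0.14 (adjusted p 0.0205). Beside these matrix genes, 3 of 7 stromal markers were lower in p50-/-IL10-/- cells over the stimuli (15.1% of all genes). They were Dcn (-1.62 ± 0.20), Col1a2 (-0.72 ± 0.11) and Col3a1 (dim in p50-/-IL10-/- cells, at 4.96 to 5.20 log2). Col1a1, Pdgfrb, Lum and Thy1 gave -0.03, 0.18, 0.00 and 0.04 and no call, with Lum and Thy1 dim in every group. With LPS, Pdgfrb was higher in p50-/-IL10-/- cells (0.47 ± 0.12, adjusted p 0.0252). The list mean on single arrays was 5.52 to 5.78 log2 in p50-/-IL10-/- cells and 5.87 to 6.35 in IL10-/- cells. The part of the stromal genes in the Fn1 and Thbs1 differences was not tested. Vcam1, the ligand of Itga4 integrins, rose with LPS by 2.23 ± 0.24 in p50-/-IL10-/- and 1.43 ± 0.24 in IL10-/- cells, and with IL-10 added to LPS it fell, by values of -1.49 ± 0.24 in p50-/-IL10-/- and -1.14 ± 0.24 in IL10-/- cells.

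Of 38 genes for integrin activation and its adaptors 32 were measured, with a median genotype difference of -0.06 log2 over the stimuli (all genes 0.00). Over the stimuli 3 were higher in p50-/-IL10-/- cells, led by Cd47 (0.51 ± 0.06), the self-recognition protein that associates with integrins. Lower were 8, among them Cytip (-0.57 ± 0.11), a regulator of adhesion, and Fermt3 (-0.46 ± 0.05), the kindlin that activates integrins of blood cells. The Cytip difference was largest unstimulated (-1.54 ± 0.20). With LPS the group means of Cytip lay close together, at 7.47 log2 in p50-/-IL10-/- and 7.26 in IL10-/- cells, a gap near the SE of 0.20. With LPS and IL-10 they were 6.88 in p50-/-IL10-/- and 7.25 in IL10-/- cells. Among all genes, 10.6% were higher and 15.1% lower. With LPS 9 of the 32 rose and 5 fell in p50-/-IL10-/- cells (10.3% and 22.1% of all genes) and 8 rose and 5 fell in IL10-/- cells (7.76% and 17.1%). The kinase gene Src rose by 2.43 ± 0.15 in p50-/-IL10-/- and 2.18 ± 0.15 in IL10-/- cells. Cytip fell in both genotypes, with differences of -1.21 ± 0.20 in p50-/-IL10-/- and -2.96 ± 0.20 in IL10-/- cells, a difference of response of 1.75 ± 0.28 (adjusted p 0.0166). Fgr, a kinase downstream of leukocyte integrins, rose when IL-10 was added to LPS, by 1.17 ± 0.13 in p50-/-IL10-/- and 1.35 ± 0.13 in IL10-/- cells.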

How the data were processed

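RNA of 12 bone marrow-derived macrophage cultures was measured on Affymetrix arrays, 2 per group. The table holds log2 expression values as deposited, made with RMA (background correction, quantile normalization and summary per probe set), and limma was used for comparisons, per the submitters' processing notes, without versions. Per the labels' protocols, 6 µg of total RNA entered each labelling. Quantile normalization fits all arrays to 1 distribution, so shifts common to all genes cannot be seen. Of 22690 probe sets, 64 controls were left out, 20380 carried 1 gene symbol in the platform annotation, 691 several and 1555 none. Symbols were looked up in RefSeq, where 20351 probe sets matched and 0 symbols changed. Each of 12393 genes was represented by its brightest probe set on average.

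The values were fitted with limma 3.58.1 (lmFit and eBayes, 1 coefficient per group, all 12 arrays) in R 4.3.3, with p-values adjusted by Benjamini-Hochberg over all genes of each comparison and a threshold of 0.05. SE is the moderated standard error, with 6 residual and 4.47 prior degrees of freedom. A gene is called dim at or below the lower quartile of the arrays (5.49 to 5.61 log2). Differences between Itgax and its partners were tested per array by exact permutation within genotypes, with p-values adjusted over the 6 stimulus tests (a choice made after the data were seen, which leaves out the genotype tests of Itgax), in Python 3.11.15 with scipy 1.17.1. The fit was tested on simulated data with noise drawn independently for each array. That test does not cover the correlations between the arrays of different groups. The 10 genes and all lists were chosen with earlier results of these data known. The text names these genes, at most 3 called genes per list and comparison with the largest changes, the 5 genes most like Itgax over the group means, and markers of other cell types. Of the marker lists, T and NK cell (6 of 8 measured) and B cell genes (4 of 5) had 0 calls between the genotypes over the stimuli. Mast cell genes (6 of 6) had 1 lower and erythroid and platelet genes (4 of 6) had 1 lower. The shares of all genes were 10.6% higher and 15.1% lower. Alternatives were another rule for probe sets, array centring, quantile normalization, a filter on dim genes, a trend in eBayes, fits of only the groups compared, the replicate number as a block, and leaving out each array. The precision is limited by the number of arrays.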

Additional observations from a re-analysis of the deposited data

How the results depend on the processing

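Of 38 called values of the 10 genes, leaving aside the 4 genotype differences of Itgax, 19 stayed called in all 21 alternatives, 19 lost the call in at least 1, and 0 changed sign. Of 78 values not called, 20 gained a call in at least 1. The count for IL-10 in p50-/-IL10-/- cells was 1 and became 0 with the mean of all probe sets. Fitting every probe set took the count for LPS and IL-10 against unstimulated IL10-/- cells to 2, where it was 4, and the unstimulated genotype count to 1, where it was 2. Leaving out 1 array gave 2 to 7 calls for LPS in p50-/-IL10-/- and 3 to 5 in IL10-/- cells, 0 to 2 for IL-10 in p50-/-IL10-/- and 0 to 3 in IL10-/- cells, 3 to 6 for both against unstimulated in p50-/-IL10-/- and 2 to 5 in IL10-/- cells. For genotype it gave 4 to 6 with LPS and IL-10, 1 to 4 with LPS, 1 to 2 unstimulated and 7 to 9 over the stimuli, and 0 to 1 for each difference of response. The excess of the Itgax genotype difference was 2.34 to 2.64 over Itgb2, 3.14 to 3.61 over Itgam and 2.24 to 2.82 over Itgal, and Itgax minus Itgal in stimulated against unstimulated cells was -1.28 to -0.64. The cause of these changes was not tested. Replicate numbers were not used as pairs, since the labels tie them to nothing shared and deviations of same-numbered arrays did not correlate over 0.1 in every pair of groups. They correlated at 0.17 to 0.59 in the 10 pairs among 5 groups, and at -0.49 to -0.17 in the 5 pairs with the doubly treated (LPS and IL-10) p50-/-IL10-/- group. Among the IL10-/- groups they correlated at 0.40 to 0.59. The main fit took all arrays as independent. If arrays under different stimuli share a source, the SE of genotype differences averaged over the stimuli could be too small, and that of differences between stimuli too large. Whether they share one was not tested. With the replicate block, counts moved to 3 for IL-10 in IL10-/- cells (2 without it), where Itgam gained a call, 3 for the unstimulated genotype contrast (2 without it), where Itgb7 did, and 7 with LPS and IL-10 (6 without it), where Itgav did. This block gives all groups the same shift between array 1 and array 2. The deviations of the doubly treated p50-/-IL10-/- group ran the other way, so these counts cannot show what pairing would give.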
